A study of Homo sapiens with 12 samples.

Results

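The 3 control libraries held in normoxia show AsPC-1, a long-established human cell line from a pancreatic cancer, kept at ambient oxygen and given a control siRNA. They are 3 of the 12 libraries of the series, chosen by their titles (Normoxia siControl, replicates A, B and C). The whole series has 4 groups of 3 and asks how cells with and without ARNT, the obligate partner of the HIF proteins, respond to low oxygen. Wells of a 6-well plate received a scrambled siRNA with a lipid reagent, were split the next day, stayed at 21% O2 and were harvested 48 h after transfection. The cells are therefore transfected controls and not untouched cells. All 3 libraries come from 1 line, and the labels give triplicate wells with no sign that they were separate cultures, so each SD measures the spread between these libraries and may be technical. Messenger RNA was selected by its poly(A) tail and read from 1 end. No other group enters the values that follow.

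Most pancreatic cancers form glands and carry genes of duct cells. The normal organ also holds acinar cells, which make digestive enzymes, and islet cells, which make hormones. Tumours are often sorted into a classical type, with genes of the gut lining, and a basal-like type, with genes of stratified epithelium. A cell line in pure culture has no blood or vessels of its own, so genes that only those tissues express give a background level.

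Reads counted in genes numbered 75621268 in replicate A, 45738778 in B and 54962070 in C. Between 76.2% and 76.6% of the reads were counted in a gene, and 14.8% to 15.1% did not align to 1 place. Reads of that second kind are outside every count below, so a low count for a gene with a near-identical copy is uncertain. The counts-per-million value (CPM) is the count divided by the library's gene total. The transcripts-per-million value (TPM) is also divided by the length of the gene's joined exons, and levels of different genes are compared on that scale alone. Unless another unit is named, a value for a gene is its TPM, as mean ± SD over the 3 libraries (n = 3). A gene counted as detected at 1 CPM or more in each library, which is 45.7 to 75.6 reads, and silent with no read in any library. A trace gene lies between. A count of 0 allows up to 3 reads, or 0.0397 to 0.0656 CPM in a library, and this limit covers counting error alone.

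Of 57820 gene IDs, 12253 were detected (21.2%), 17362 were trace and 28205 were silent. Detected genes took 99.8% of all counts. Among 19263 protein-coding genes 10870 were detected (56.4%), 4475 were trace and 3918 were silent (20.3%), and these shares are the background against which the lists below are read. The median detected gene stood at 15.2 TPM and the median protein-coding gene at 2.55 TPM. A mean of 100 TPM or more was reached by 1124 genes and of 1000 TPM or more by 56.

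The mitochondrial genome gave the most abundant RNAs. Its transcripts took 14.1% ± 0.352 (SD, n = 3) of the reads and 43.1% ± 0.741 of the TPM total. MT-RNR2, the large ribosomal RNA of the organelle, led with 63411 ± 1781 TPM, and MT-CO2, a subunit of cytochrome oxidase, followed with 51207 ± 879. MT-CO1 had 48865 ± 614 TPM and MT-ND4, a subunit of complex I, had 46727 ± 2150.1, and the ranges of these neighbours overlapped. Of the 20 highest genes, 14 lay in the mitochondrial genome and 1 more, MTATP6P1 (5864 ± 519), is a nuclear pseudogene that is a near copy of mitochondrial sequence, so its value is uncertain. The 100 genes with the most reads held 28.1% of them.

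Among nuclear protein-coding genes, iron storage, the cytoskeleton and small calcium-binding proteins came first. FTH1, the heavy chain of ferritin, had 7784, 7658 and 7742 TPM in replicates A, B and C, a mean of 7728 ± 64.1. TMSB10, a thymosin that binds actin monomers, followed at 5505 ± 499. EEF1A1, which brings aminoacyl-tRNA to the ribosome, stood at 3714 ± 34.9. Then came S100A4 (3416 ± 219.5) and S100A10 (3171 ± 15.0), members of the S100 calcium-binding family. The next places held CDH17 (3041 ± 66.6), an intestinal cadherin, FTL (2803 ± 480.1), the light chain of ferritin, and CEACAM6 (2679 ± 59.5), a glycoprotein of epithelial surfaces. ARPC1A (2648 ± 107), a subunit of the actin-nucleating complex, and S100A11 (2571 ± 83.7) came after them. Common reference genes lay lower: ACTB at 1541 ± 62.0, GAPDH at 1058 ± 122 and TBP at 19.6 ± 1.08. All 16 genes of the reference list were detected.

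The 3 libraries carried the RNA of epithelial cells. Of 25 matched epithelial and ductal genes, 22 were detected (88.0%), 2 were trace and 1 was silent, with a median of 35.6 TPM. EPCAM, an adhesion protein of epithelia, had 1067, 971 and 978 TPM in the 3 libraries, a mean of 1005 ± 53.4, rank 56 of all genes. KRT19, the keratin used to mark ducts, had 326, 487 and 343, a mean of 385 ± 88.1. Replicate B was the high library for KRT19, whose GC content was 61.8%. KRT18 (1204 ± 134) and KRT8 (582 ± 65.7), partners in the filaments of simple epithelia, were among the 116 highest genes, and every KRT18 value lay above every EPCAM value. CDH1, E-cadherin, had 77.5 ± 1.47.

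MUC1, a membrane mucin, was detected with 10.6, 11.2 and 10.2 TPM and a mean of 10.7 ± 0.492. That lies below the 15.2 TPM of the median detected gene. KRT7, a second duct keratin, was close to the detection limit with 95, 78 and 59 reads in replicates A, B and C, or 1.01 ± 0.245 TPM. The GC contents of MUC1 and KRT7 were 71.2% and 62.9%. CFTR, the chloride channel of ducts, had no read in any library. SLC4A4, a bicarbonate cotransporter, had 2, 0 and 1 reads, and SPP1, a secreted phosphoprotein of ducts, had 1, 0 and 1. ANXA4 (229 ± 10.6), an annexin, completed the 5 highest genes of the list, followed by the desmosomal plakin DSP (178 ± 5.24).

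**Figure D1:**
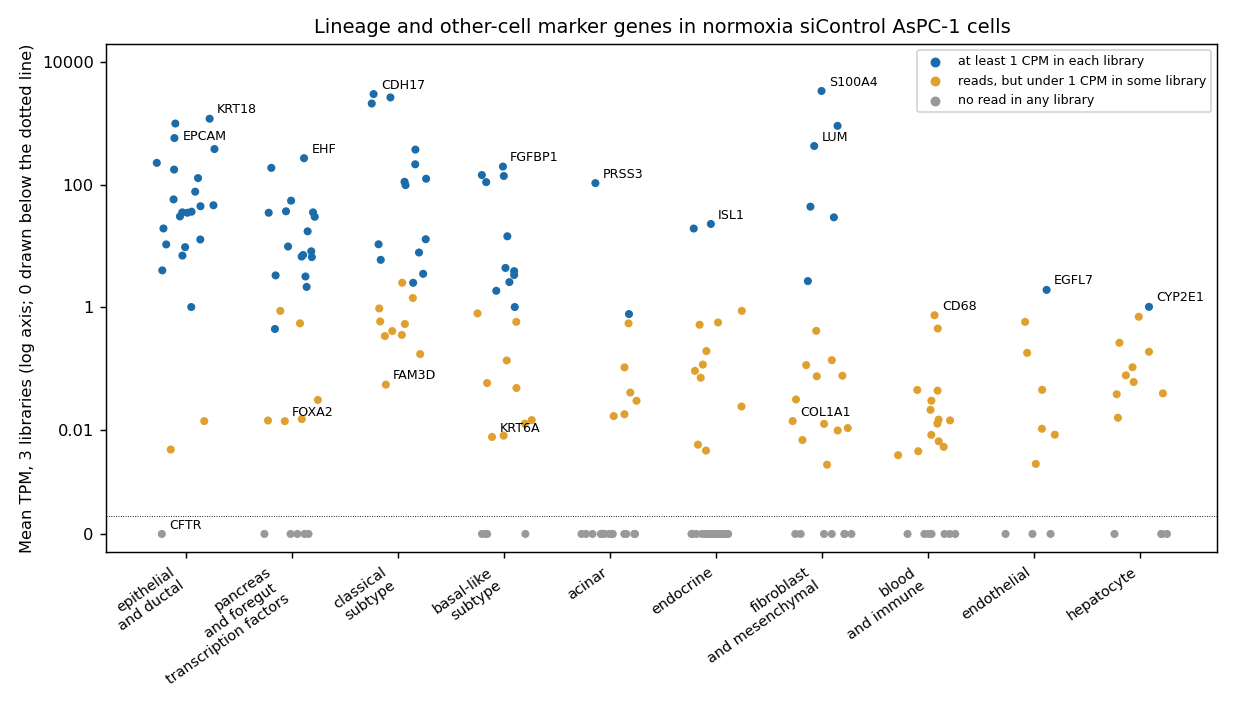
Mean TPM over the 3 normoxia siControl libraries (log axis, 0 drawn below the dotted line) for each gene of 10 lists, 1 point per gene, coloured by whether the gene had at least 1 CPM in each library, reads below that, or no read. Epithelial and classical genes reach above 1000 TPM, acinar and endocrine genes lie mostly at 0, and the mesenchymal list has S100A4, VIM and LUM far above its other members.

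Transcription factors of the pancreas and foregut split by gene. Of 28 matched, 17 were detected (60.7%), 6 were trace and 5 were silent. EHF, an ETS factor of epithelia, was highest with 279.6, 267 and 273 TPM, a mean of 273 ± 6.53, and KLF5, a Krüppel-like factor of gut epithelium, followed at 189.8 ± 15.7. HNF4G (55.2 ± 2.70) and HNF4A (37.1 ± 2.28), nuclear receptors of endoderm, came next. HNF4A and ELF3 (35.6 ± 3.71) had overlapping ranges, as did ELF3 and SOX9 (35.1). GATA6, a factor of the classical tumour type, had 30.2 ± 0.819, and PDX1, which specifies the pancreas, had 9.87 ± 0.450. FOXA1 and FOXA2 are related pioneer factors of endoderm. FOXA1 had 687, 396 and 463 reads in replicates A, B and C and FOXA2 had 1, 1 and 0. GRHL2, a grainyhead factor of epithelia, had 2, 2 and 1 reads. PTF1A and RBPJL, which drive the acinar programme, NEUROG3, which starts the endocrine one, SOX2 and CDX1 had no read.

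Genes of the exocrine product were almost all off. Of 25 matched acinar genes 17 were silent, 6 were trace and 2 were detected (8.0%). PRSS1, CPA1, PNLIP and CTRB1, which encode trypsinogen, a carboxypeptidase, lipase and a chymotrypsinogen, had no read. CELA3A, an elastase, had 2, 1 and 0. The exception was PRSS3, another trypsinogen, with 105.4, 115.6 and 99.96 TPM and a mean of 107 ± 7.95. Its copies PRSS1 and PRSS2 are close in sequence, so the split between them is uncertain. AMY2B, an amylase with near-identical copies, had 0.778 ± 0.0386.

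Islet genes were off to a similar extent. Of 28, 16 were silent, 10 were trace and 2 were detected (7.14%). INS, SST and CHGA, the genes of insulin, somatostatin and chromogranin A, had no read, and GCG, the glucagon gene, had 28, 20 and 28 reads in replicates A, B and C. ISL1, a LIM-homeodomain factor also used outside islets, had 23.1, 22.8 and 23.2 TPM, a mean of 23.0 ± 0.192. SCG2, a granin of secretory granules, had 19.4 ± 0.276.

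Genes of the classical tumour type included some of the highest in the cell. Of 24, 14 were detected (58.3%, near the 56.4% of protein-coding genes), 10 were trace and none was silent. The summed level was 8836 TPM, most of it from the 3 highest genes of the list. CDH17 had 3110.4, 2978 and 3036 TPM, CEACAM6 had 2621, 2675 and 2739.8, and TSPAN8, a tetraspanin, had 2244, 2049.6 and 2107. The ranges of these 3 genes did not touch, but their order depended on the gene length used. With the length of the longest transcript in place of all exons joined, TSPAN8 came first at 2852 TPM, before CDH17 at 2585 and CEACAM6 at 2436. LYZ, lysozyme, had 377 ± 17.3, AGR2, an endoplasmic disulphide isomerase of mucous cells, had 217 ± 8.66, and LGALS4, an intestinal galectin, had 126 ± 12.0. Other genes of the same list were low. TFF1 and TFF2, small peptides of the mucous layer, had 1.42 ± 0.445 and 7.87 ± 0.626, and FAM3D, a secreted protein of the gut, had 0.0548.

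The basal-like list was lower in sum, at 628.4 TPM, though not empty. Of 24 matched genes 11 were detected (45.8%, beside 56.4% of protein-coding genes), 9 were trace and 4 were silent. The median was 0.689 TPM against 4.76 for the classical list. FGFBP1, a carrier of fibroblast growth factors, had 201, 199 and 198 TPM and a mean of 199 ± 1.68. SLC2A1, a glucose transporter, had 145 ± 11.4, FAM83A, a signalling scaffold, had 139.8 ± 4.60, and DHRS9, a retinol dehydrogenase, had 111 ± 4.51. TNS4, a tensin of focal adhesions, followed with 14.5 ± 2.07. The keratins of stratified epithelium were low: KRT15 had 3.91 ± 0.0611, KRT17 had 0.136 ± 0.0516 and KRT6A had 0.00767. Both lists come from tumour studies and were not tested against each other here.

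The promoters of 2 lineage genes at the extremes show how different their starts are in CG dinucleotides, the sites of DNA methylation. CEACAM6 is among the highest lineage genes. PCSK2, a prohormone convertase of islet cells, was picked from the silent lineage genes for its CG content. Among those compared it had the most CG relative to the number its base composition predicts. The contrast with CEACAM6 therefore follows in part from that choice. Each line gives the 250 bases before the start from RefSeq (GRCh38.p14), 5′ to 3′ on the plus strand, with each CG in capitals. The CEACAM6 window, chr19:41755280-41755529, has 5 CG, 0.274 of the number its base composition predicts.
CEACAM6: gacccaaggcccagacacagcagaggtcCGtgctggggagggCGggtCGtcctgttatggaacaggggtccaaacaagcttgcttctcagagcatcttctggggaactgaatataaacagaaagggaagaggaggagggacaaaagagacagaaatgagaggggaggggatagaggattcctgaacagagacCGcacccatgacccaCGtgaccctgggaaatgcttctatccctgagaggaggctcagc
The PCSK2 window, chr20:17225857-17226106, has 22 CG, 1.11 of the number predicted.
PCSK2: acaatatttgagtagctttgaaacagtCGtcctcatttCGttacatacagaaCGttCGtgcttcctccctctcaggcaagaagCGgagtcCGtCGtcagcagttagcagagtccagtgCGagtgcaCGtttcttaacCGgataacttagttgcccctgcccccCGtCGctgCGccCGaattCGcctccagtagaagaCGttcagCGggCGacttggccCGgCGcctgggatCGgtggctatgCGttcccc
The motif searched was CG, which reads the same on both strands. Among 27305 promoter windows of that length the median was 11 CG (quartiles 3 and 23), 38.7% had 5 or fewer and 27.6% had 22 or more. Methylation was not measured, and the pair describes 2 genes and not their classes.

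A few genes of the mesenchymal list were high, and most of the list was not detected. Of 25 fibroblast and mesenchymal genes 6 were detected (24.0%), 12 were trace and 7 were silent, with a median of 0.0139 TPM. S100A4 had 3333, 3665 and 3250.1 TPM. VIM, the intermediate filament vimentin, had 879, 956 and 929, and LUM, the proteoglycan lumican, had 461, 410.3 and 422. Each of the 3 was high in every library. SNAI2 (44.1 ± 0.323) and ZEB1 (29.5 ± 1.29), repressors of epithelial genes, were detected too, in the same libraries as CDH1 at 77.5. ACTA2, smooth muscle actin, had 2.69 ± 0.445. Of the cell type markers chosen for fibroblasts, LUM was therefore high, while COL1A1, COL1A2, DCN and PDGFRB were trace. COL1A1 had 4, 2 and 2 reads in replicates A, B and C and COL1A2 had 3, 1 and 3. FN1, fibronectin, which is outside that marker set, had 1, 3 and 2. DCN, decorin, had 39, 30 and 30 reads and PDGFRB had 17, 11 and 18. CDH2, TWIST1, TWIST2, PRRX1, THY1, PDGFRA and COL5A1 had no read.

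Markers of blood, vessel and liver cells were near or below the detection limit. None of 21 blood and immune genes was detected, 14 were trace, and the summed level was 1.13 to 1.73 TPM per library. PTPRC, the leukocyte antigen CD45, had 3, 0 and 1 reads, CD3E had none, and CD14 had 20, 15 and 13. Of 10 matched endothelial genes 1 was detected, EGFL7 (1.93 ± 0.797, GC 68.1%), a secreted protein of vessels, while VWF had 38, 34 and 32 reads and CDH5 had none. Of 14 hepatocyte genes 1 was detected, CYP2E1 (1.02 ± 0.0741), while ALB had 19, 6 and 13 reads and APOA1 had none.

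Adhesion genes had the highest summed level of the 6 surface lists, which share some members. Of 25, 19 were detected (76.0%) and none was silent, with a median of 64.2 TPM and a sum of 9737 TPM. Most of that sum came from CDH17, CEACAM6, ITGB1 and EPCAM. By median the list lay below the transporters (66.0 TPM) and the tetraspanin and vesicle genes (86.0 TPM). After CDH17 and CEACAM6 came ITGB1, the beta-1 integrin, with 1449.8, 1406 and 1457 TPM and a mean of 1438 ± 27.7, then EPCAM. ITGA6 (512 ± 12.5), the laminin-binding alpha chain, was next. ITGB4, its partner in hemidesmosomes, had 72.6, 107 and 80.4, highest in replicate B, with a GC content of 63.7%. CEACAM5, the carcinoembryonic antigen, had 62.4 ± 4.60 against 2679 for its relative CEACAM6. ICAM1 (0.720 ± 0.235) and MCAM (0.00856) were trace.

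Receptors for growth factors were widely present. Of 38, 31 were detected (81.6%), 4 were trace and 3 were silent, with a median of 12.5 TPM. MET, the hepatocyte growth factor receptor, was highest with 676, 655 and 688 TPM, a mean of 673 ± 16.7, and no other receptor's range reached it. TGFBR2 (471, 459 and 472), the type II receptor of TGF-beta, and EGFR (461, 462 and 472), the epidermal growth factor receptor, had overlapping ranges. LGR4 (165 ± 6.40), a receptor for R-spondins, and ERBB3 (123 ± 2.83), a kinase-impaired member of the EGFR family, completed the first 5. LGR5, a marker of intestinal stem cells, had 111, 107 and 114, a mean of 111 ± 3.46. ERBB2 stood much lower at 7.71 ± 1.05, and ERBB4, PDGFRA and RET had no read. HGF, the ligand of MET, had 0, 1 and 0 reads.

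Surface antigens studied as tumour targets ranged from among the highest genes to none. Of 32 matched, 20 were detected (62.5%), 9 were trace and 3 were silent, with a median of 7.69 TPM. CEACAM6, TSPAN8, EPCAM and EGFR led, and TM4SF1 (411 ± 12.6), a tetraspanin-like protein, came next with a range that overlapped that of F3 (406 ± 18.5), tissue factor. MUC13, a membrane mucin of the gut, had 183 ± 5.62, and MSLN, mesothelin, had 24.8, 32.9 and 25.8, a mean of 27.8 ± 4.44. PSCA, prostate stem cell antigen, had 50, 15 and 22 reads and stayed a trace gene, and MUC16 had 2, 0 and 0. GPC3, a glypican, and SLC34A2, a phosphate transporter, had no read.

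**Figure D2:**
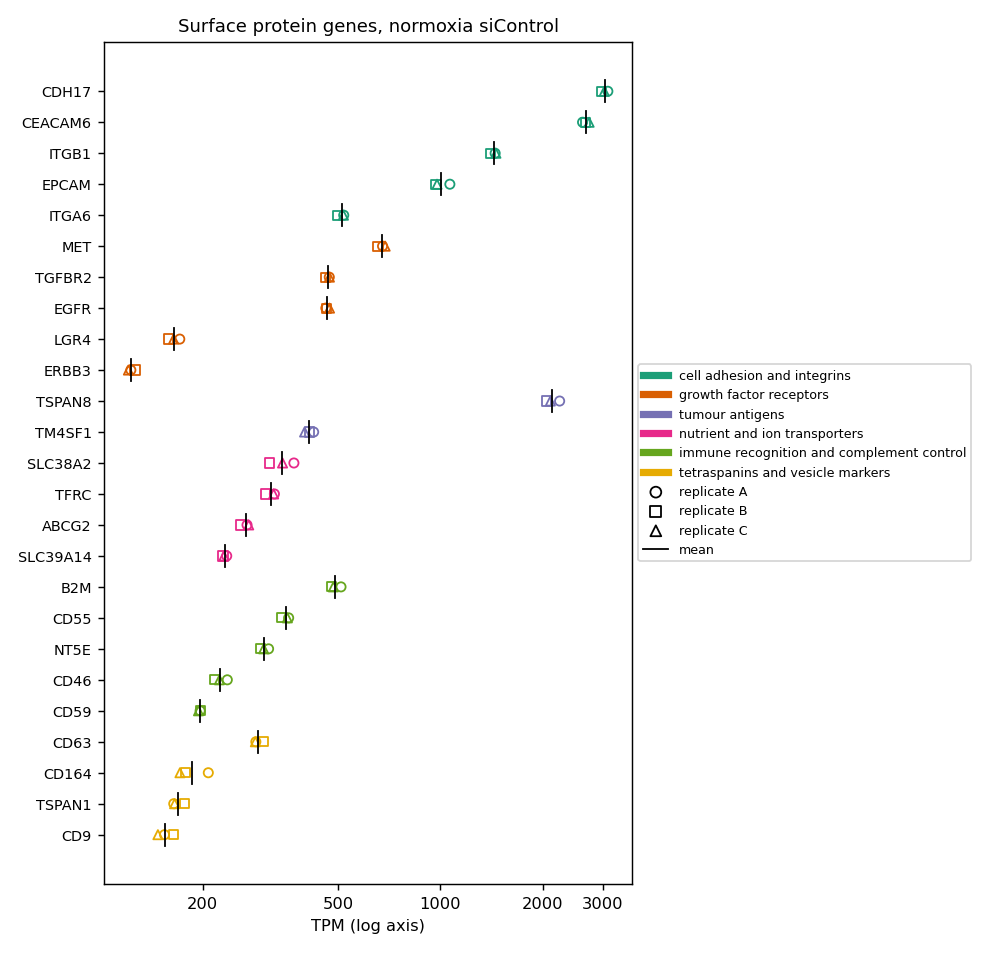
TPM (log axis) of genes among the 5 highest of each of 6 surface lists, with 1 symbol per replicate, a bar at the mean and a gene on 2 lists drawn once. The 3 replicates lie close together for most genes, and CDH17, CEACAM6 and TSPAN8 stand furthest to the right.

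Transporters and exporters were well represented, with 20 of 25 matched detected (80%) and a median of 66.0 TPM. SLC38A2, a transporter of neutral amino acids, had 343 ± 28.4 TPM, and TFRC, the transferrin receptor, had 318 ± 10.9, with overlapping ranges. ABCG2, a drug efflux pump, had 270.1, 259 and 273, a mean of 267 ± 7.34. ABCB1, the efflux pump P-glycoprotein, had 6, 1 and 3 reads. SLC39A14 (232 ± 3.04), a zinc and iron importer, followed.

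On the immune side of the surface, complement regulators lay above HLA-E, HLA-C and HLA-B, heavy chains of MHC class I. Of 26 genes 17 were detected (65.4%), with a median of 12.3 TPM. B2M, the light chain of MHC class I, had 510.4, 479 and 485 TPM, a mean of 491 ± 16.8. CD55 (351 ± 9.10), CD46 (226 ± 10.0) and CD59 (196 ± 1.35), which restrain complement, and NT5E (304 ± 8.30), which makes adenosine, all lay above HLA-E in every library. HLA-E had 75.1 ± 5.28, HLA-C had 36.6 ± 3.51 and HLA-B had 12.5 ± 1.24, and the variable class I genes are uncertain because reads can align to several of them. CD274, which encodes PD-L1, had 6, 7 and 8 reads, and PDCD1LG2 had none. Every one of 15 tetraspanin and vesicle genes was detected, with a median of 86.0 TPM, from TSPAN8 down to CD81 (10.5 ± 1.25), with CD63 (291 ± 8.96), CD164 (186 ± 19.4), TSPAN1 (169 ± 7.15) and CD9 (155 ± 8.32) after TSPAN8.

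Among growth factors and their modulators 28 of 51 were detected (54.9%), 16 were trace and 7 were silent, with a median of 2.88 TPM. HDGF, a chromatin-bound factor that is also released, had 482, 495 and 467 TPM, a mean of 481 ± 13.6, and DKK1, an antagonist of WNT, had 403, 369 and 378, a mean of 383 ± 17.9. FGFBP1 came next. MDK, the heparin-binding factor midkine, had 144, 181 and 141, highest in replicate B, with a GC content of 62.0%. BMP4 had 83.1 ± 1.51. Of the EGFR ligands, TGFA had 68.5 ± 2.03, EREG had 54.1 ± 4.50 and HBEGF had 12.3 ± 0.470, while AREG (0.580 ± 0.165) was trace and EGF had 5, 1 and 3 reads. VEGFA, the vascular growth factor, stood at 6.86 ± 0.637, and FGF19, an ileal hormone, at 45.4 ± 1.67. WNT5A, WNT7A, WNT2, INHBA, IGF1, PDGFC and PTN had no read.

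Of 35 matched cytokines 16 were detected (45.7%, beside 56.4% of protein-coding genes), 14 were trace and 5 were silent (14.3%, beside 20.3%). Their median was 1.11 TPM, and 6 reached 10 TPM. IL18, an inflammasome cytokine of epithelia, had 215, 205 and 208 TPM, a mean of 209 ± 4.79, and TNFSF15, a TNF-family ligand, had 90.8 ± 8.38. CXCL16 (40.3 ± 1.72), LIF (31.8 ± 2.53) and IL32 (17.1 ± 2.02) followed. CXCL8, a neutrophil chemokine, had 7.37 ± 0.442, IL6 had 0, 0 and 2 reads, and CCL2, CXCL12, IL33, TSLP and IFNL1 had none. MIF, a cytokine that most cells make, had 25, 28 and 14 reads with a GC content of 66.7%.

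**Figure D3:**
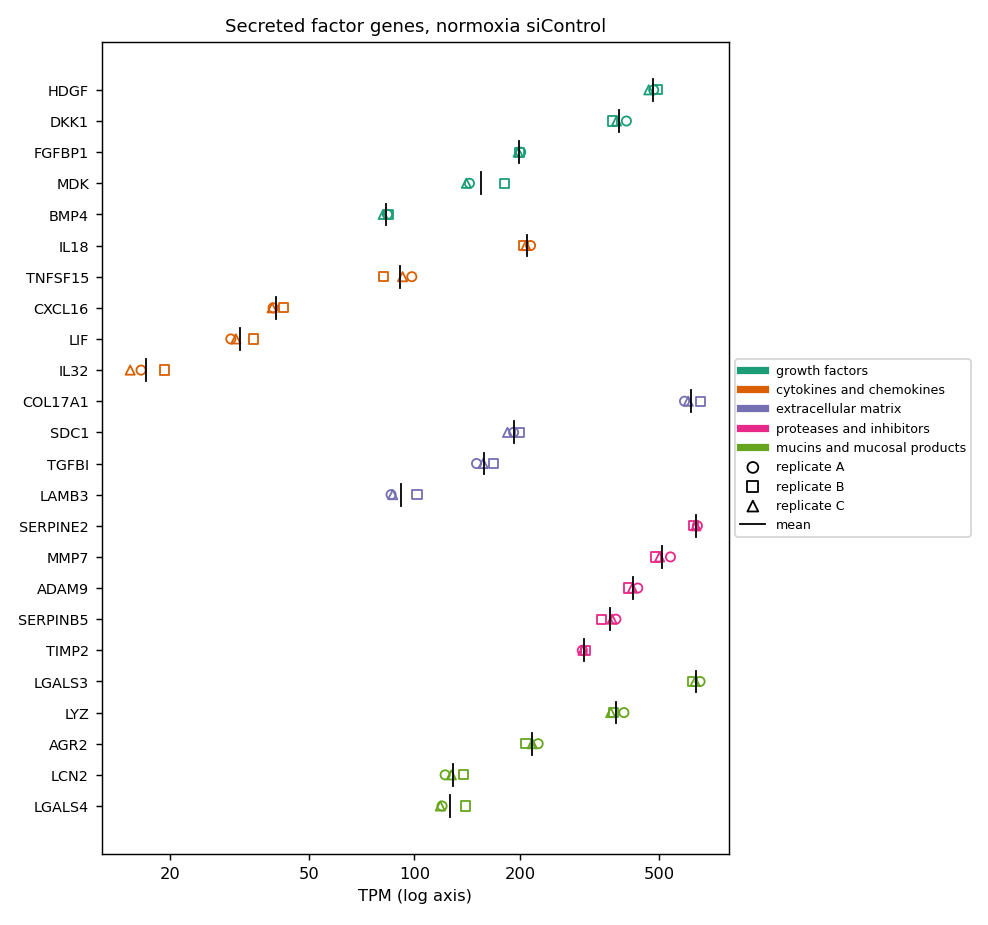
TPM (log axis) of genes among the 5 highest of each of 5 secreted lists, with 1 symbol per replicate and a bar at the mean. Of the cytokines drawn IL18 and TNFSF15 stand furthest to the right, and replicate B stands to the right for MDK, LAMB3 and LGALS4.

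The extracellular matrix list was led by a hemidesmosome collagen, COL17A1. Of 37, 20 were detected (54.1%), 15 were trace and 2 were silent, with a median of 2.58 TPM. COL17A1, a transmembrane protein whose outer part is shed, had 591, 656 and 606 TPM, a mean of 617 ± 34.0. SDC1 (192 ± 7.53), a syndecan, and TGFBI (158 ± 8.74), a TGF-beta-induced matrix protein, lay lower. LAMB3 (91.3 ± 8.91) and LAMA3 (54.9 ± 0.784) encode laminin chains of epithelial basement membranes. Collagen IV, another basement membrane protein, was near 0, with 0, 0 and 1 reads for COL4A1 and 13, 5 and 4 for COL4A2, and SPARC had 3, 0 and 1.

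Proteases and their inhibitors gave 30 detected genes of 47 matched (63.8%) and a median of 15.6 TPM. SERPINE2, an inhibitor of thrombin and plasminogen activators, had 643, 628 and 637 TPM, a mean of 636 ± 7.42, and MMP7, matrilysin, had 539, 490.0 and 502, a mean of 510.2 ± 25.5. ADAM9 (421 ± 13.0), a membrane metalloprotease, SERPINB5 (362 ± 17.5), the largely intracellular serpin maspin, and TIMP2 (304 ± 3.41) completed the first 5, and their ranges were apart. MMP2, MMP3 and TIMP3 had no read, and MMP9 had 1, 0 and 0. IGFBP3, a carrier of insulin-like growth factors, is on no list and was named after its value was seen, with 1336 ± 52.8.

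The list of mucins and mucosal products was led by 5 genes over 100 TPM and held little of the gel-forming mucins. Of 27 genes 13 were detected (48.1%, beside 56.4% of protein-coding genes). The median was 1.92 TPM, beside 2.55 TPM for protein-coding genes. LGALS3, galectin-3, had 655, 622 and 634 TPM, a mean of 637 ± 16.4, and LYZ, AGR2, LCN2 (129 ± 7.89), an iron-siderophore carrier, and LGALS4 followed. MUC5AC had 19, 10 and 15 reads, MUC2 had 1, 2 and 0 and MUC6 had 0.00443 TPM, while MUC5B was detected at 0.698 ± 0.167.

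Genes often altered in pancreatic cancer were expressed with 1 exception. Of 27, 26 were detected (96.3%) and MAP2K4, a kinase upstream of JNK, had no read in any library. CDKN2A, which encodes p16, had 49.1, 50.9 and 48.2 TPM, a mean of 49.4 ± 1.37. SMAD4, which carries TGF-beta signals to the nucleus, had 7.56, 7.20 and 6.59, a mean of 7.12 ± 0.492. TGFBR2, CCND1 (165 ± 4.84), AURKA (128 ± 0.564), MYC (124 ± 4.01) and GNAS (108 ± 6.04) led it. A level of RNA does not show whether the gene's sequence is intact, which these counts do not hold.

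Of 27 genes for the uptake and metabolism of nucleoside drugs such as gemcitabine, 24 were detected (88.9%). That list holds genes that inactivate the drug as well as genes that activate it. The equilibrative carrier SLC29A1 had 14.1 ± 1.26 TPM, and the concentrative carriers SLC28A1 and SLC28A2 had no read. DCK, the kinase that activates the drug, had 33.0 ± 1.01, and CDA, the deaminase that inactivates it, had 72.7, 94.1 and 75.1, a mean of 80.6 ± 11.7. The highest member, HNRNPA2B1 (409 ± 6.29), is an RNA-binding protein and neither a carrier nor an enzyme of nucleosides. NT5E, CMPK1 (233 ± 21.6), NT5C3A (177 ± 9.66) and RRM1 (158 ± 4.23) came next. RRM1 overlapped RRM2 (154 ± 4.01), the other ribonucleotide reductase chain.

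Of 47 matched nuclear receptors 30 were detected (63.8%). NR3C1, the glucocorticoid receptor, and PPARG, a receptor for lipids, had 62.3 ± 2.31 and 62.0 ± 0.576, with overlapping ranges. HNF4G, NR1H3 (39.7 ± 4.41), an oxysterol receptor, and HNF4A followed. The sex steroid receptors ESR1 and PGR had no read.

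Several gene families had few detected members or none. None of 350 olfactory receptors was detected, and 326 had no read. None of 92 keratin-associated proteins, of 54 cancer-testis antigens of the MAGE-A, GAGE and SSX type, of 27 taste receptors or of 360 segments of the antigen receptors was detected either. The taste receptors were mostly trace, with 16 of 27 trace and 11 silent, and 7 of them had a mean of at least 1 TPM, as did 1 olfactory receptor. That olfactory receptor, OR2A7, had 1.16 ± 0.0729 TPM, TAS2R38, a bitter taste receptor, had 2.38 ± 0.185, and PAGE2B, a cancer-testis antigen, had 0.260 ± 0.123. Of 45 defensins 1 was detected, DEFB1 (12.3 ± 1.67), the defensin that epithelia make constitutively, and 44 had no read. Of 20 type I and III interferons 1 was detected, IFNE (4.54 ± 0.879), an interferon of epithelia, and 17 had no read. Several of these families consist of near-identical copies whose reads may fall among those not aligned to 1 place, so the counts of silent members are uncertain for them.

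Other families were divided, to different extents. S100 genes (47.4% detected) and aldo-keto reductases (60%) lay near the 56.4% of protein-coding genes. Keratins (16.4%), clustered protocadherins (15.7%), cytochrome P450 enzymes (30.9%) and claudins lay well below it, and ribosomal proteins (95.2%) lay above it. Of 19 S100 genes 9 were detected, and S100A4, S100A10 and S100A11 were all among the 25 highest genes of the cell. Of 55 keratins 9 were detected, with KRT18, KRT8 and KRT19 well above KRT10 (24.1 ± 1.68), the fourth. Of 24 claudins 6 were detected, led by CLDN12 (70.1 ± 3.26), CLDN4 (46.5 ± 6.53) and CLDN7 (36.5 ± 2.53). Of 55 cytochrome P450 enzymes 17 were detected, with CYP3A5, a drug-metabolising enzyme, at 161 ± 2.37, then CYP2S1 (53.5 ± 5.87) and CYP20A1 (27.0 ± 1.53). Of 10 aldo-keto reductases 6 were detected, and AKR1C3 (435 ± 8.78), AKR1C1 (120.3 ± 9.08) and AKR1C2 (91.0 ± 7.39), which reduce steroids, are close in sequence and may share reads. Of 51 clustered protocadherins 8 were detected, led by PCDHGB2 (7.01 ± 0.219), PCDHB13 (2.23 ± 0.137) and PCDHGB1 (1.98 ± 0.112). Of 84 ribosomal proteins of the cytosol 80 were detected, with RPS12 (2339.6 ± 125), RPS27 (1957 ± 34.9) and RPS4X (1768 ± 11.4) highest.

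HOX genes, which set position along the body axis, were on in 3 of their 4 clusters. HOXA had 7 of 11 genes detected, HOXB 9 of 10 and HOXC 5 of 9, with summed levels of 102.4, 175.3 and 62.8 TPM. In HOXD none of 9 was detected and 6 had no read, with 6, 5 and 8 reads over the whole cluster in replicates A, B and C. The highest genes were HOXB7 (33.0 ± 3.98), HOXB3 (31.9 ± 1.67), HOXB8 (30.3 ± 0.650) and HOXA13 (29.7 ± 1.35), and each overlapped the next in range. Within HOXA a run of 4 genes was trace, HOXA4, HOXA5, HOXA6 and HOXA7, at 1.08 TPM or less. HOXA3 (15.6 ± 0.463) on one side and HOXA9 (6.95 ± 0.642) and HOXA10 (25.4 ± 1.64) on the other were detected.

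**Figure D4:**
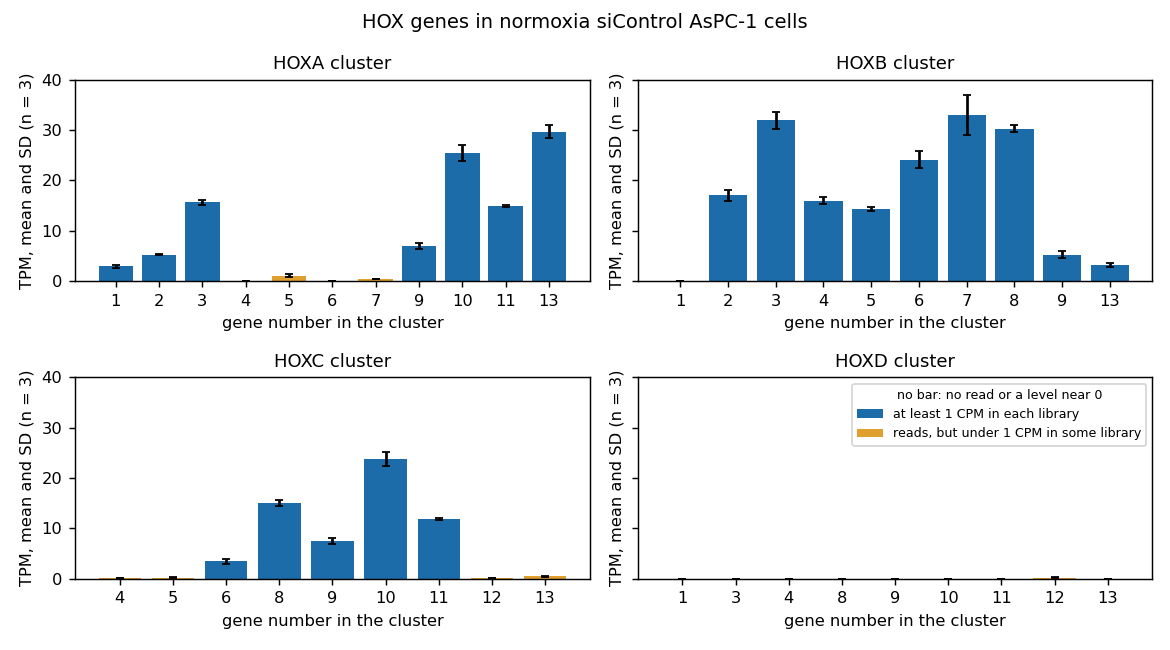
TPM of each HOX gene by cluster and gene number, as mean and SD over the 3 libraries (n = 3), coloured by detection. Genes of the HOXA, HOXB and HOXC clusters reach 23.7 to 33.0 TPM, and HOXD stays at 0.227 TPM or less.

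The 3 libraries were close but not equal. Pearson's r of log2(CPM + 1) across genes was 0.9990 to 0.9995 over the 3 pairs, where genes are not independent replicates. The chi-square of counts per degree of freedom was 11.6 for A and B, 5.84 for A and C and 8.42 for B and C, so each pair differed by more than sampling noise and none was taken for a repeat deposit of another. This does not show that they came from separate cultures. Over 9249 protein-coding genes with a mean of 5 CPM or more, the median coefficient of variation (CV, the SD as a percent of the mean) was 4.23%. The theoretical CV from counting error had a median of 2.14%. The median SD of 3 values lies below the theoretical SD, so 2.14% is somewhat high as a reference. A CV over 20% was found for 135 genes.

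The genes with the widest spread shared a library and a composition. Replicate B was the highest for all 100 genes with the largest CV, and their median GC content was 63.3% against 46.5% for all these genes. RAMP1, a receptor-modifying protein, had 3.85, 8.20 and 4.49 CPM in replicates A, B and C, and HSPB1, a small heat shock protein, had 5.36, 11.0 and 6.68. TBL3, XAB2, NOSIP, AKR7A3, PNPLA2, COPE, ELOB and NBL1 made up the rest of the first 10, with CVs of 28.1% to 38.0%. With the genes in 5 equal bins of GC content, in the GC-richest bin the median log2 ratio of CPM in B against A was 0.26 and the median CV 10.6%, while in the GC-poorest bin the ratio was -0.10 and the CV 4.19%.

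Level also followed composition. The median of detected protein-coding genes was 26.2 TPM below 40% GC and 3.41 TPM at 65% or above, and the share of genes over 100 TPM was 9.22% at 40 to 45% GC and 0.890% at 60 to 65%. No gene of 751 at 65% or above passed 100 TPM. Ribosomal proteins had a median of 388.9 TPM below 45% GC, where all 26 were detected. At 45 to 55% the median was 291.7 TPM with 34 of 37 detected. At 55% or above it was 136.4 TPM with 20 of 21 detected. MUC1, KRT7, MIF, MSLN and MDK are among the GC-rich genes named above, so their low or variable values stand beside that composition, and its part in them was not tested.

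**Figure D5:**
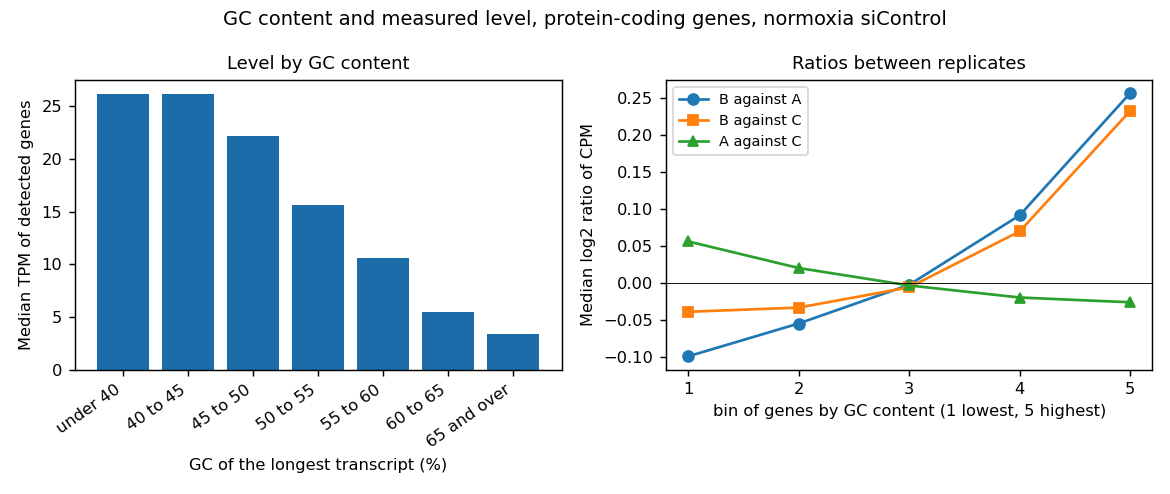
Left, median TPM of detected protein-coding genes by GC content of the longest transcript. Right, median log2 ratio of CPM between replicates over 5 bins of genes by GC content, where B against A runs from -0.10 in the GC-poorest bin to 0.26 in the GC-richest.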

How the data were processed

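The deposited files hold raw read counts per gene, 1 file per library. The file extension names an HTSeq count output. The submitters' processing notes name Trimmomatic, STAR 2.4.2a and GRCh38.p10, and the labels' protocols name poly(A) selection, a stranded library kit and single-end reads. The gene annotation, the counter's version and its strand setting are not given in the sources used here, so overlapping and antisense genes cannot be told apart. Of 57820 gene IDs, 52338 matched GENCODE 29 by number and 57.0% of these carry the same version, so the exon lengths may differ from the models that were counted.

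Summary lines that name no gene were kept out of all totals. Of all reads, 7.40% to 7.51% had no feature and 1.21% to 1.26% were ambiguous. CPM used the sum of gene counts, and TPM used the joined exon length (Python 3.11.15, pandas 2.3.3). edgeR 4.0.16 supplied TMM factors as an alternative scaling. No group was compared with another and no hypothesis test was run. The TPM and CV were checked on simulated counts, and the detection calls were not. Those counts used the same gene lengths and varied by counting error, apart from a set of genes raised in a single library. The check therefore does not cover errors in length or the wider spread between these libraries.

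The 25 gene lists (657 genes, 647 matched) and 16 families, and the choice of these libraries, were made with earlier results of these data known. The text names the 20 highest genes, the 5 highest of each list, all cell type markers, silent members, the 3 highest of each family and the 10 largest CVs. Other genes named were chosen after their values were seen. PRSS2, PNLIPRP2, ANXA8L1, PECAM1, CD24, SLC6A14, CCL5, MMP28 and NR2E3 were among those not matched. Some genes that the rule names are not reported here. A comparison of promoter CG between detected and silent genes was void, because 72.0% of silent protein-coding genes had a promoter entry and 80% was required.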

Additional observations from a re-analysis of the deposited data

How the results depend on the processing

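No paired analysis was possible because the results come from no test. The number of detected genes was 12253 as reported, 12247 with TMM scaling, 12492 with a mean of 1 CPM, 13705 with a mean of 1 TPM, and 12317 to 12334 with 1 library left out. Silent genes numbered 28205, and 36718 had at most 3 reads in each library. Leaving out 1 library gave 29342 to 30321. The share of reads in the 100 highest genes was 28.1%, and 17.6% without mitochondrial transcripts. The median of the listed genes was 3.66 TPM as reported, 4.25 TPM with the length of the longest transcript and 6.42 TPM without mitochondrial transcripts, since that total is smaller by construction and multiplies each nuclear TPM by 1.76. With the longest transcript, 11 of 111 named genes moved by more than 1.5 times, among them KRT8, ANXA4, VIM, B2M, CD55, CD63, CD9, IL32, GNAS and PPARG, all upward, by up to 2.66 times. Of 86 pairs of neighbouring named genes with separate ranges, 11 stood in the other order, among them CEACAM6 and TSPAN8, LIF and IL32, and MYC and GNAS. Of the listed genes 369 were detected, 367 with a mean of 1 TPM and 369 to 370 with 1 library left out. With a mean of 1 TPM, the acinar list was the only list to move by more than 1.5 times, with 1 gene in place of 2. The families are outside those totals. Among them, 7 taste receptors in place of 0 and 1 olfactory receptor in place of 0 reached a mean of 1 TPM. The median CV was 4.23%, 4.75% with TMM scaling, 4.83% from a mean of 1 CPM and 7.39% with no filter on low values. The comparison of promoter CG and its alternatives were not run. Depth limits the silent calls, which rest on 45.7 to 75.6 reads per CPM, and the low calls of GC-rich genes rest on libraries in which such genes were low and replicate B differed.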

Other observations

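Several genes stood out from their neighbours on the chromosome, taken in the order of protein-coding genes in GENCODE 29 and named after their values were seen. On chromosome 7 ARPC1A (2648 ± 107 TPM) lies beside ARPC1B (501 ± 34.1), a second form of the same subunit, and KPNA7 (21.8 ± 1.44), an importin. SMURF1, a ubiquitin ligase, had 562 ± 18.4 and BAIAP2L1, an adaptor of membrane curvature, had 389 ± 7.88. TRRAP, a scaffold of histone acetyltransferases, had 138 ± 6.37, while BUD31 (50.05 ± 0.597) and PDAP1 (45.8 ± 4.34) on the other side were lower and NPTX2 had no read.

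On chromosome 17 the silent MAP2K4 stood in a run of genes without reads. ZNF18, DNAH9 and SHISA6 on one side and ARHGAP44 on the other had 0 reads in all 3 libraries, and MYOCD, a heart and smooth muscle cofactor, had 1, 0 and 0 in replicates A, B and C. DNAH9, SHISA6 and MYOCD are genes of restricted tissues, whereas ZNF18 encodes a zinc finger protein. ELAC2, the next gene beyond ARHGAP44, had 20.9 ± 0.977 TPM, and COX10 had 22.6 ± 0.331. These counts hold no measure of gene copies.

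On chromosome 9 CDKN2A (49.4 ± 1.37), CDKN2B (76.3 ± 4.34) and MTAP (15.2 ± 0.659) were detected together with IFNE (4.54 ± 0.879). On chromosome 12 LUM (431 ± 26.8) lay between DCN (0.137 ± 0.0174) and KERA, which had no read. All 3 encode related small proteoglycans.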
